A study of Homo sapiens with 9 samples.

Results

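The 6 genes described here encode subunits of the AP-1 transcription factor: JUN, JUNB and JUND of the JUN family, and FOS, FOSL1 and FOSL2 of the FOS family. Binding near them was mapped by chromatin immunoprecipitation followed by sequencing (ChIP-seq) in 2 established human prostate cell lines, with 1 library per factor. PC3 cells, derived from a bone metastasis of prostate carcinoma, were used with antibodies against ETV4 and against JUND itself, and expressed no retroviral protein. RWPE-1 cells come from normal prostate epithelium that was immortalised, and do not form tumours. From these, antibodies to endogenous ETS1 and to endogenous GABPA gave a library each, without a retrovirus. FLAG-ERG and FLAG-ETV1 were expressed in RWPE-1 from retroviruses and precipitated with an antibody against FLAG. The input libraries and the RWPE-1 FLAG control without an expressed fusion were not analysed here. Members were the called regions, or peaks, of the 6 lists whose midpoint lay within 200 kb of a position given for each gene on the hg18 build: chr1:59022000 for JUN, chr19:12763000 for JUNB, chr19:18252000 for JUND, chr14:74815000 for FOS, chr11:65424000 for FOSL1 and chr2:28469000 for FOSL2. By this rule 109 of the 27416 peaks of the series were members (0.398%).

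AP-1 proteins bind DNA as dimers through a basic leucine zipper. JUN proteins form homodimers or pair with FOS proteins, and FOS proteins need a JUN partner. FOS and JUN are immediate early genes of growth factor and RAS/MAPK signalling, FOSL1 is known as a target gene of the same pathway and of AP-1 itself, and JUNB and JUND can restrain proliferation in several cell types. ETS proteins recognise a GGAA core and often occupy sites next to AP-1 elements. ERG, ETV1 and ETV4 are the ETS genes that rearrangements activate in prostate cancer, whereas ETS1 and GABPA are expressed in many tissues and GABPA is known for binding near the start sites of housekeeping genes.

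The lists hold positions only, with no height or p-value, so a peak that is not listed may still be weakly bound. As every list is a single library, replicate error is unknown and no test between factors or lines was made. Factor and cell line change together, so a difference between PC3 and RWPE-1 lists cannot be told apart from a difference between the proteins. Each gene position is given to the nearest kb. Distances below about 2 kb therefore do not place a peak on either side of a start site. All distances run from the gene position to the midpoint of the peak, and "above" and "below" mean towards higher and lower coordinates. A midpoint is the centre of a called interval and not a measured summit. Distances between midpoints within a region therefore describe the intervals and do not place the bound sites. Counts per window are set beside those of tiles, that is, consecutive 400 kb stretches of every chromosome, of which there were 7702. Counts within 20 kb of a gene are set beside tiles of 40 kb. Tiles of neither size were matched for gene content, and gene-rich stretches hold more peaks. The windows are centred on a gene, whereas the borders of tiles are fixed and can divide a cluster of peaks. Shares of tiles therefore give only a rough measure of how rare a count is.

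Every one of the 6 genes had peaks in its window, and at 5 of them a peak lay within 2 kb. The same shares over all genes were not computed, so these counts are a description only. Of all 40 kb tiles, 21.7% held at least 1 peak of any list and 9.77% at least 1 FLAG-ETV1 peak. FOSL1 had the most peaks, 31, followed by JUNB with 28. JUN and JUND had 14 each, and FOS and FOSL2 11 each. Of all tiles, 0.312% held at least 31 peaks, 0.480% at least 28, 5.12% at least 14 and 8.35% at least 11. The windows with the most peaks were also the ones with the most genes. In the RefSeq table of GRCh38, 26 other protein-coding genes start within 200 kb of JUNB, 23 of FOSL1, 15 of JUND, 3 of FOS, and 1 each of JUN (MYSM1) and FOSL2 (PLB1). The part of gene content in the peak counts was not tested.

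**Figure D1:**
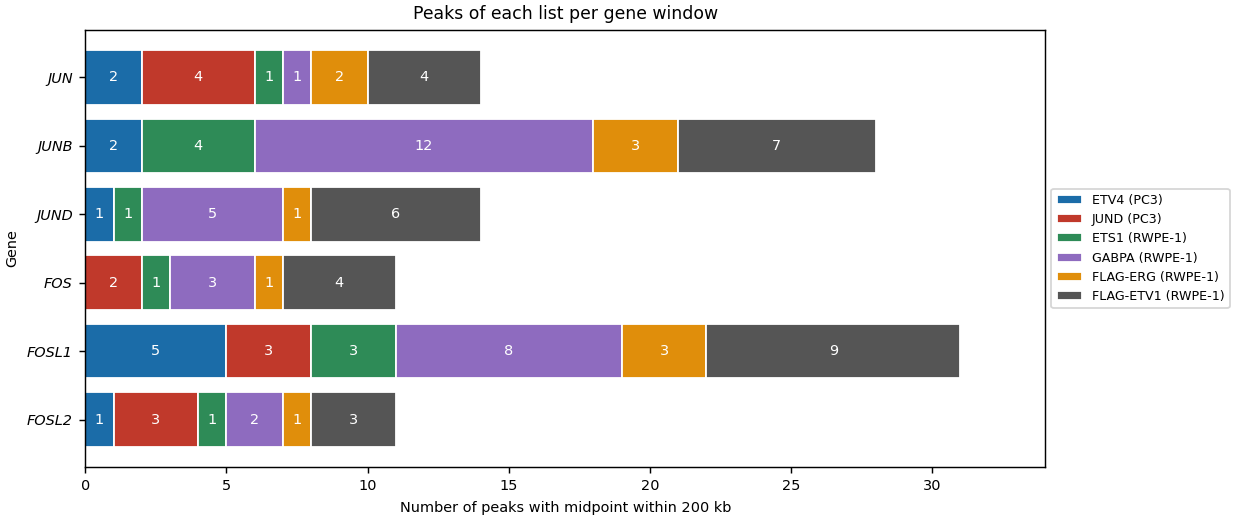
Number of peaks with a midpoint within 200 kb of each gene (horizontal axis, peaks; vertical axis, genes), divided by list; each list is 1 library. FOSL1 (31 peaks) and JUNB (28) stand above the others, and no JUND peak appears at JUNB or JUND and no ETV4 peak at FOS.

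Among the lists, FLAG-ETV1 gave 33 member peaks and GABPA 31, JUND 12, and ETV4, ETS1 and FLAG-ERG 11 each. Peaks of all 6 lists occurred in the windows of JUN, FOSL1 and FOSL2. This was the case in 2.29% of tiles. The PC3 JUND list had no peak in the windows of JUNB and JUND, and the ETV4 list none in the window of FOS. The nearest JUND peak lay 608 kb above JUNB (chr19:13370677-13371161) and 234 kb below the JUND gene (chr19:18017896-18018323). The nearest ETV4 peak to FOS lay 706 kb below it (chr14:74108456-74108929). A tile held at least 1 JUND peak in 24.5% of cases and at least 1 ETV4 peak in 23.9%, so an empty window was common in both lists.

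**Figure D2:**
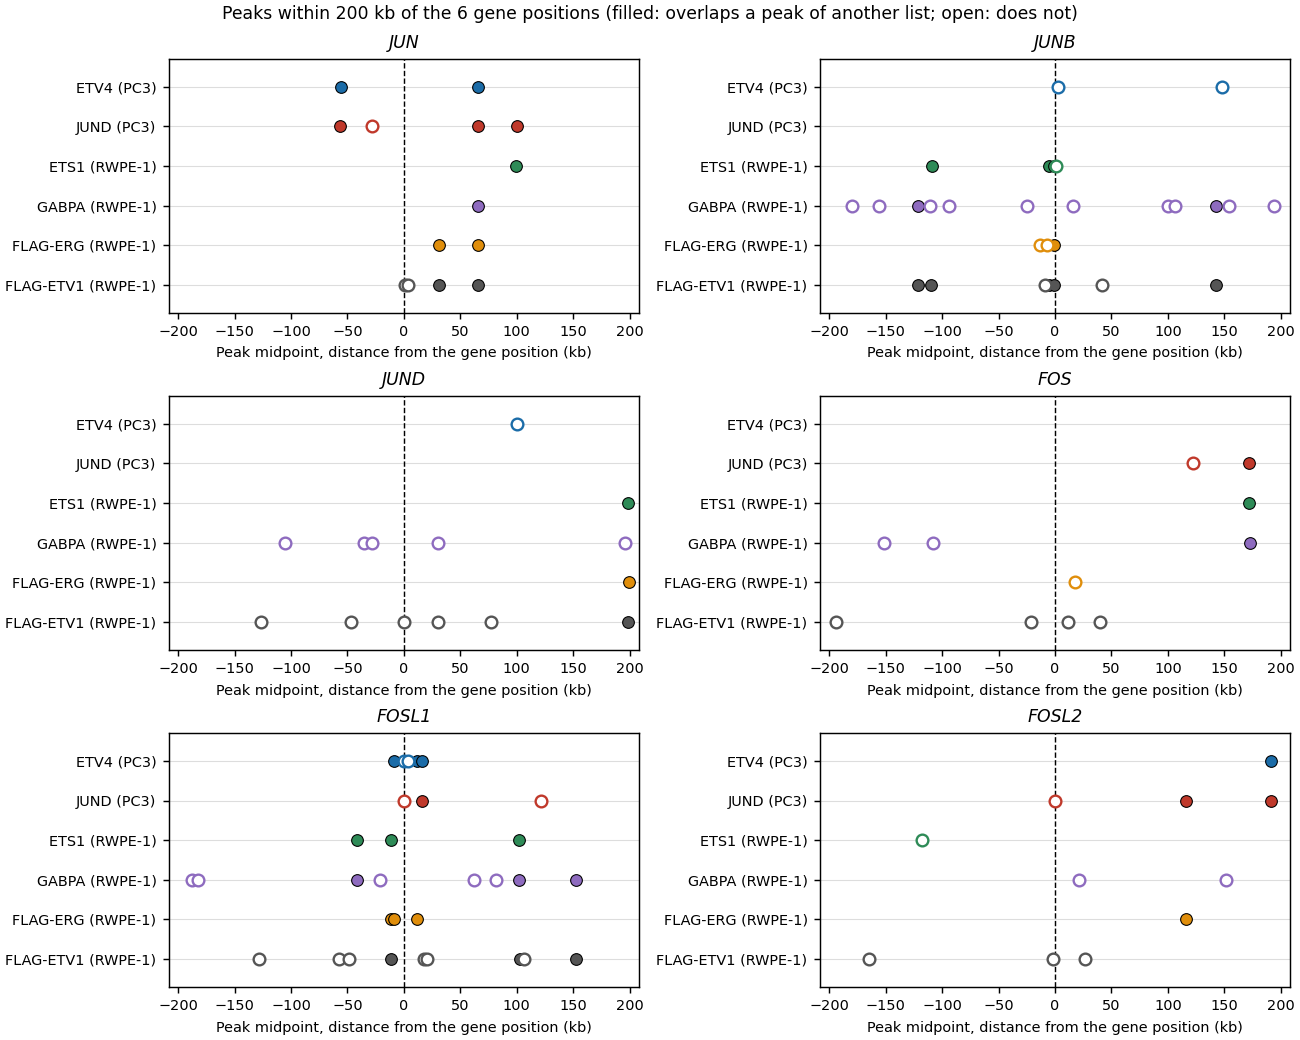
Peak midpoints by distance from each gene position (horizontal axis, kb; dashed line, the position) in the 6 lists (vertical axis); filled points overlap a peak of another list by at least 1 bp and open points do not. In the FOSL1 panel the 5 ETV4 and 3 FLAG-ERG peaks all lie within 20 kb of the gene, whereas the GABPA peaks are spread over the window.

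Close to the genes, 19 of the 109 peaks lay within 10 kb, a span that is 5% of each window, and 10 lay within 2 kb. The 19 were 9 at JUNB, 5 at FOSL1, 2 each at JUN and FOSL2, 1 at JUND and 0 at FOS. By factor they were 7 FLAG-ETV1, 4 ETV4, 3 FLAG-ERG, 3 ETS1 and 2 JUND peaks. GABPA, with 31 member peaks, had 0 within 10 kb of any of the 6 positions, and its nearest one was 15.5 kb above JUNB. Few of 31 peaks would lie in 5% of the windows if they were spread evenly. The median distance was 106 kb for GABPA and 99.7 kb for ETS1, against 12.98 kb for FLAG-ERG and 15.9 kb for ETV4. It was 41.3 kb for FLAG-ETV1 and 82.6 kb for JUND. The short medians depended on single windows. Without FOSL1, which held 5 of the 11 ETV4 peaks, the ETV4 median was 82.7 kb. FLAG-ERG had 3 of its 11 peaks at FOSL1 and 3 at JUNB. Its median was 24.1 kb when FOSL1 alone was left out, and also when JUNB alone was.

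Promoter sequences of the subunit genes with a peak within 2 kb are shown because these are the promoters the lists bear on. They come from RefSeq on GRCh38.p14, where 5 of the 6 genes, all but FOSL1, matched an entry, and run 5′ to 3′ from 250 bases before the annotated start to 30 bases after it. Capitals mark matches to the motifs searched. The peaks are on hg18, so a peak near a gene cannot be laid onto these letters base by base. The JUN stretch is chr1:58784018-58784297 (minus strand), that of JUNB chr19:12791236-12791515 (plus), that of JUND chr19:18281593-18281872 (minus) and that of FOSL2 chr2:28392608-28392887 (plus).
JUN: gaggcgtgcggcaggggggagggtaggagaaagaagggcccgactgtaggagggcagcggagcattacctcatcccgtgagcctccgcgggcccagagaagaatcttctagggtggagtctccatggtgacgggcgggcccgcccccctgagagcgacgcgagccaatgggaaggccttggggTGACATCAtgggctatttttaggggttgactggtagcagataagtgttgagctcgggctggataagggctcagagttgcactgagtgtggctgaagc
JUNB: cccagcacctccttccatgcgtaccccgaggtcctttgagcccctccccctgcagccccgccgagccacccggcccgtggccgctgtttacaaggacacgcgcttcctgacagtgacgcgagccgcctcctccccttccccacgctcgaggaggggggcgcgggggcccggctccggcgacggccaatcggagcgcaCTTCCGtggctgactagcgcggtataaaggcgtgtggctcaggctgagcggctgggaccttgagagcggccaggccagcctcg
JUND: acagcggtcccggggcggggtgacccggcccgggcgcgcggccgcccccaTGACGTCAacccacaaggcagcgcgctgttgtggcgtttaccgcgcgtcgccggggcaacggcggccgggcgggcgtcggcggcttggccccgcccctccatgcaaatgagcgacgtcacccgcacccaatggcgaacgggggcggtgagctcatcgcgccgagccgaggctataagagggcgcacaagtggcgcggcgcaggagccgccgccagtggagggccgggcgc
FOSL2: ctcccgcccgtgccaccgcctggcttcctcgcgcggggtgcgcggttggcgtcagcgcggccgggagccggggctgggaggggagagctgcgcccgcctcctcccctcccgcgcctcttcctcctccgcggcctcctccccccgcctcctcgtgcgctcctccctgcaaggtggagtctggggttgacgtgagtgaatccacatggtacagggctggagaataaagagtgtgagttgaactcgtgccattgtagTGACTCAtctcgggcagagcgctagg

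The AP-1 element was searched as TGANTCA, the related cAMP response element type, which AP-1 dimers with ATF proteins also bind, as TGACNTCA, and the ETS core as CCGGAA. Both strands of the whole 300-base window were read, of which the last 20 bases are not printed. FOSL2 held the AP-1 element TGACTCA, at bases 5 to 11 after its start. Of 35116 RefSeq promoters of this length, 7.71% hold TGANTCA. JUN held TGACATCA, from 67 to 60 bases before the start, and JUND held TGACGTCA, from 200 to 193 bases before it, and 7.72% of promoters hold TGACNTCA. CCGGAA, found in 17.2% of promoters, matched in 0 of the 5 genes. The wider ETS form CGGAAG, added after the data had been seen, matched only JUNB, as CTTCCG on the strand shown from 53 to 48 bases before the start, and is found in 19.5% of promoters. FOS had no match to any of these motifs in its window. These matches describe letters and not bound sites.

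JUN, the founding gene of the JUN family, had 14 peaks that merged into 7 regions, and 4 of these held peaks of more than 1 list, as did 10.7% of all regions of the series. Only FLAG-ETV1 had peaks next to the gene. They lay 819 bp (chr1:59022577-59023062) and 3.28 kb (chr1:59025049-59025514) above the position. The farther one is on the upstream side, since JUN is read on the minus strand. Neither overlapped a peak of another list. A 40 kb tile held at least 2 FLAG-ETV1 peaks in 1.31% of cases. The nearest FLAG-ERG peak was 30.9 kb above, at a region that FLAG-ETV1 shared (chr1:59052590-59053138, midpoints 70.5 bp apart).

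The region with the most lists at any of the 6 genes lay 65.5 kb above JUN, at chr1:59087134-59087784. Both PC3 lists, both FLAG lists and GABPA had a peak there, and ETS1 was the list without one. Of all 24166 merged regions of the series, 0.0455% held at least 5 lists. The midpoints of its peaks did not coincide. The midpoints of FLAG-ERG and FLAG-ETV1 were 3.50 bp apart, and that of JUND, mapped in the other cell line, was 5.0 bp from FLAG-ERG and 8.50 bp from FLAG-ETV1. The ETV4 midpoint lay 53.0 bp from that of JUND. The GABPA midpoint was the farthest off, 105 to 158 bp from the other 4. The member region of ETS1 at this gene was a different one, 99.7 kb above JUN (chr1:59121423-59122035), where its peak overlapped a JUND peak by 354 bp.

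On the other side of JUN, ETV4 and JUND shared a region 56.1 kb below (chr1:58965526-58966210), where 245 bp overlapped and midpoints were 220 bp apart. No RWPE-1 list had a peak below JUN within its window. JUND alone had a further peak 28.1 kb below the gene (chr1:58993691-58994152). JUND thus had 4 peaks around JUN, a number that 1.36% of tiles reached, and 3 of the 4 overlapped a peak of another list, as did 32.2% of the whole JUND list.

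JUNB, whose product competes with JUN for partners and sites, had a cluster of RWPE-1 peaks at the gene. The region centred 0.98 kb below the position (chr19:12761674-12762373) held ETS1, FLAG-ERG and FLAG-ETV1. The ETS1 and FLAG-ETV1 midpoints were 75.0 bp apart, and the FLAG-ERG peak was shifted by 208 bp from FLAG-ETV1 and 283 bp from ETS1. A second ETS1 peak, at 741 bp above the position (chr19:12763494-12763989), overlapped no other list. ETS1 and FLAG-ETV1 also shared a region 5.31 kb below JUNB (chr19:12757445-12757936), where the midpoints were 6.5 bp apart. The 3 ETS1 peaks within 20 kb are a number seen in 0.0117% of 40 kb tiles.

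FLAG-ERG had 2 more peaks below JUNB that no other list shared, at 7.09 kb (chr19:12755684-12756140) and 12.98 kb (chr19:12749811-12750232). A FLAG-ETV1 peak 8.67 kb below (chr19:12754110-12754545) lay between them and ended 1138 bp short of the nearer one. At least 3 FLAG-ERG peaks were found in 0.0351% of 40 kb tiles and at least 3 FLAG-ETV1 peaks in 0.229%. In PC3 the one peak at the gene was ETV4, 2.79 kb above (chr19:12765557-12766028), and it overlapped no RWPE-1 peak. The other ETV4 peak of the window lay 148 kb above (chr19:12910311-12910796) and was also unshared. Of the 22 merged regions of the JUNB window, 0 held peaks of both cell lines, and of all regions of the series only 2.65% did.

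The outer JUNB window belonged mainly to GABPA. It had 12 peaks at 15.5 to 194 kb from the gene, and 0.428% of tiles held as many. Of these, 10 were unshared, and in the whole GABPA list 9.22% of peaks were shared. The remaining 2 overlapped FLAG-ETV1, at 122 kb below (chr19:12641155-12641728) and 143 kb above (chr19:12905201-12905932). ETS1 and FLAG-ETV1 shared a further region 109.5 kb below JUNB (chr19:12653095-12653899), where 176 bp overlapped. With 26 other genes starting in a window of this size, these peaks cannot be assigned to JUNB. FLAG-ETV1 had 7 peaks in all, and the remaining one lay 41.3 kb above (chr19:12804088-12804577), unshared.

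The JUND gene, which encodes the AP-1 subunit precipitated in PC3, had no peak of its own product within 200 kb. Its single close peak was of FLAG-ETV1 (chr19:18251913-18252383), with the midpoint 147.5 bp from the position, and no other list shared it. Below the gene, the nearest peaks were of GABPA, at 28.05 kb (chr19:18223726-18224184) and 35.7 kb (chr19:18216144-18216483). About 30 kb above the gene, a GABPA peak (chr19:18281627-18282100) and a FLAG-ETV1 peak (chr19:18282265-18282754) were 164 bp apart without overlapping. The window held 6 FLAG-ETV1 and 5 GABPA peaks, numbers reached in 3.18% and 5.78% of tiles.

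The only shared region near JUND lay at the edge of the window, 199 kb above the gene (chr19:18450557-18451300), with ETS1, FLAG-ERG and FLAG-ETV1. ETS1 and FLAG-ETV1 were centred 24.5 bp apart there, and FLAG-ERG 223.5 bp from FLAG-ETV1. The same 3 lists met at JUNB, where FLAG-ERG also lay on the higher side, and below FOSL1, where its midpoint lay between those of the other two. Both its ETS1 and its FLAG-ERG peak were the only ones of their list in the window, so these counts depend on the limit of 200 kb. ETV4 had 1 peak, 99.98 kb above (chr19:18351742-18352228), which no other list shared.

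FOS, an immediate early gene that is induced within minutes of growth factor stimulation, was the gene without a peak within 10 kb. The nearest peaks were of the FLAG fusions and did not overlap. FLAG-ETV1 lay 11.6 kb above (chr14:74826336-74826779), 20.9 kb below (chr14:74793851-74794337) and 39.5 kb above (chr14:74854304-74854771), and FLAG-ERG 17.3 kb above (chr14:74832082-74832568). A 40 kb tile held at least 2 peaks in 7.67% of cases. JUND had 2 peaks far above FOS, and the first, at 122 kb (chr14:74936796-74937244), was unshared.

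The second JUND peak near FOS, at 172 kb (chr14:74986783-74987280), belonged to the only shared region of this window (chr14:74986704-74987701). It overlapped an ETS1 peak by 375 bp and a GABPA peak by 35 bp, and the ETS1 and GABPA peaks did not touch each other. JDP2, which encodes an AP-1 family protein that represses AP-1 targets, is 1 of the 3 protein-coding neighbours of FOS in RefSeq, with NEK9 and TMED10. It was the only one of the 12 related AP-1 and bZIP genes considered that neighbours a member. Its position on hg18 was not used here, so no peak was assigned to it.

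FOSL1, which encodes FRA1, an AP-1 subunit associated with invasion of carcinoma cells, had more peaks within 20 kb than the other 5 genes, 13, against 11 at JUNB, although within 10 kb it had 5 against 9. The 5 ETV4 peaks all lay within 20 kb, at 8.86 kb below, 132 bp below, 3.39 kb above, 11.7 kb above and 15.9 kb above. Of 76906 tiles of 40 kb, 0.00780% held 5 or more ETV4 peaks. The share of tiles with at least 13 peaks of all lists together was also 0.00780%. JUND had 2 peaks in this span, against 0.325% of tiles.

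At the FOSL1 position, an ETV4 peak (chr11:65423622-65424115) and a JUND peak (chr11:65424199-65424688) lay side by side with 83 bp between their ends. They were not counted as shared, since shared peaks had to overlap by at least 1 bp. At 15.9 kb above, ETV4 and JUND overlapped by 428 bp and were centred 58.5 bp apart (chr11:65439632-65440176). The ETV4 peak 3.39 kb above the gene (chr11:65427137-65427637) was unshared.

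The other 2 ETV4 peaks at FOSL1 overlapped FLAG-ERG of RWPE-1, at 8.98 kb below (chr11:65414645-65415389) and 11.8 kb above (chr11:65435441-65436247). These overlaps were partial, with 223 and 188 bp in common and midpoints 261 and 309.5 bp apart. All 3 FLAG-ERG peaks of the window were shared, against 45.9% of the whole list. The remaining one met ETS1 and FLAG-ETV1 at 11.5 kb below (chr11:65412083-65412939). There the midpoints followed each other in the order FLAG-ETV1, FLAG-ERG and ETS1, 134.5 and 232 bp apart. At least 3 FLAG-ERG peaks were found in 0.0351% of 40 kb tiles. The FLAG-ETV1 peaks 17.95 kb (chr11:65441708-65442201) and 20.2 kb (chr11:65443952-65444412) above the gene were unshared.

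**Figure D3:**
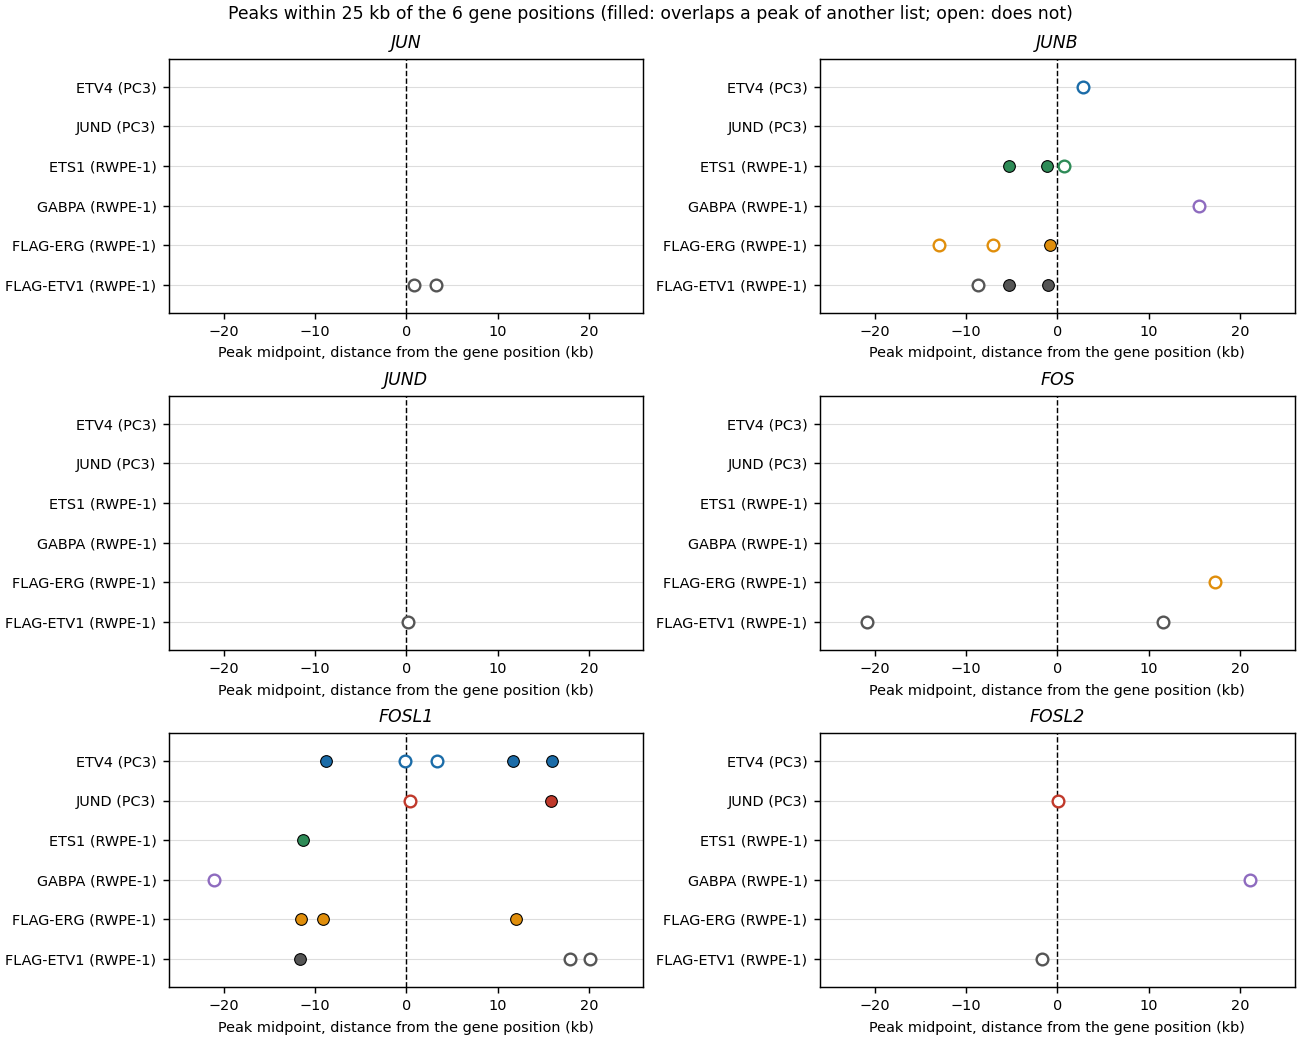
Peak midpoints within 25 kb of each gene position (horizontal axis, kb) in the 6 lists (vertical axis); filled points overlap a peak of another list and open points do not. At FOSL1, 3 of the 5 ETV4 and all 3 FLAG-ERG points are filled, at JUNB filled points occur in the ETS1, FLAG-ERG and FLAG-ETV1 rows, and JUN and JUND have FLAG-ETV1 points only.

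Away from FOSL1, the RWPE-1 lists shared regions among themselves. ETS1 and GABPA overlapped almost wholly 41.7 kb below (chr11:65382084-65382585), with midpoints 8.50 bp apart. ETS1, GABPA and FLAG-ETV1 met 102 kb above (chr11:65526034-65526679), and GABPA and FLAG-ETV1 at 152 kb above (chr11:65575951-65576683). The other 5 of the 8 GABPA peaks were unshared and lay 21.04 to 188 kb from the gene. In the whole GABPA list 9.22% of peaks were shared. FLAG-ETV1 had 9 peaks, a number in 0.805% of tiles, and 3 of them were shared, against 17.2% of the whole list. JUND had 1 more peak, unshared, 121 kb above (chr11:65544943-65545387). With 23 other genes starting in the window, the outer peaks cannot be assigned to FOSL1.

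FOSL2, which encodes FRA2, had a JUND peak within 2 kb of its position, as FOSL1 also did, at 443 bp. The FOSL2 peak (chr2:28468825-28469315) had its midpoint 69.5 bp from the position, which is given only to the nearest kb. The promoter printed above carries TGACTCA next to the start, but the peak cannot be laid onto those letters. No other list shared this JUND peak. A FLAG-ETV1 peak lay 1.74 kb below (chr2:28467023-28467503), 1321 bp from the end of the JUND peak. The nearest ETV4 peak was 191 kb away.

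Both remaining JUND peaks of the FOSL2 window were shared, as were 32.2% of the whole JUND list. At 116 kb above, JUND overlapped FLAG-ERG by 189 bp (chr2:28584485-28585293), and at 192 kb above it overlapped ETV4 by 252 bp (chr2:28660207-28660924). At least 3 JUND peaks were present in 3.21% of tiles. The GABPA peaks 21.2 kb (chr2:28489919-28490405) and 152 kb (chr2:28620660-28621140) above, the ETS1 peak 117 kb below (chr2:28351289-28351755) and the FLAG-ETV1 peaks 26.8 kb above and 165 kb below overlapped no other list.

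Together the 109 peaks merged into 81 regions, of which 61 were in 1 list, 14 in 2, 5 in 3 and 1 in 5. Regions in at least 2 lists made up 24.7% (exact 95% binomial interval 15.8 to 35.5%), against 10.7% of all 24166 regions of the series. Regions in at least 3 lists made up 7.41% (2.77 to 15.4%), against 2.25%. The intervals are Clopper-Pearson intervals and cover counting error only. Peaks of a window are neighbours and not independent draws, so the intervals are too narrow, and no test of the difference was made. By gene, 7 of the 20 shared regions were at FOSL1, 5 at JUNB, 4 at JUN, 2 at FOSL2 and 1 each at JUND and FOS.

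Of the 20 shared regions, 11 held RWPE-1 lists only, 3 held ETV4 and JUND only, and 6 held peaks of both lines. The 6 were 2 at JUN, 2 at FOSL1, 1 at FOS and 1 at FOSL2, and they made up 7.41% of the member regions (2.77 to 15.4%), against 2.65% of all regions. Among regions in at least 2 lists only, both lines were present in 6 of 20 here and in 640 of 2578 in the series. FLAG-ERG was in 4 of the 6, and JUND also in 4. Counted by peaks, 4 of 11 FLAG-ERG peaks overlapped a list of the other line, 36.4% (10.9 to 69.2%), against 12.9% of its whole list. For JUND it was 4 of 12, 33.3% (9.92 to 65.1%), against 13.6%. Both intervals contain the share of the whole list. Of the 6 lists, only FLAG-ETV1 had a lower share than its whole list, 1 of 33, 3.03% against 4.37%. With reciprocal overlap of at least 50% in place of 1 bp, the peaks shared across lines fell from 16 to 9. FLAG-ERG then kept a PC3 partner only at JUN. These counts are small, and the part of the cell line in them cannot be told apart from that of the factor.

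**Figure D4:**
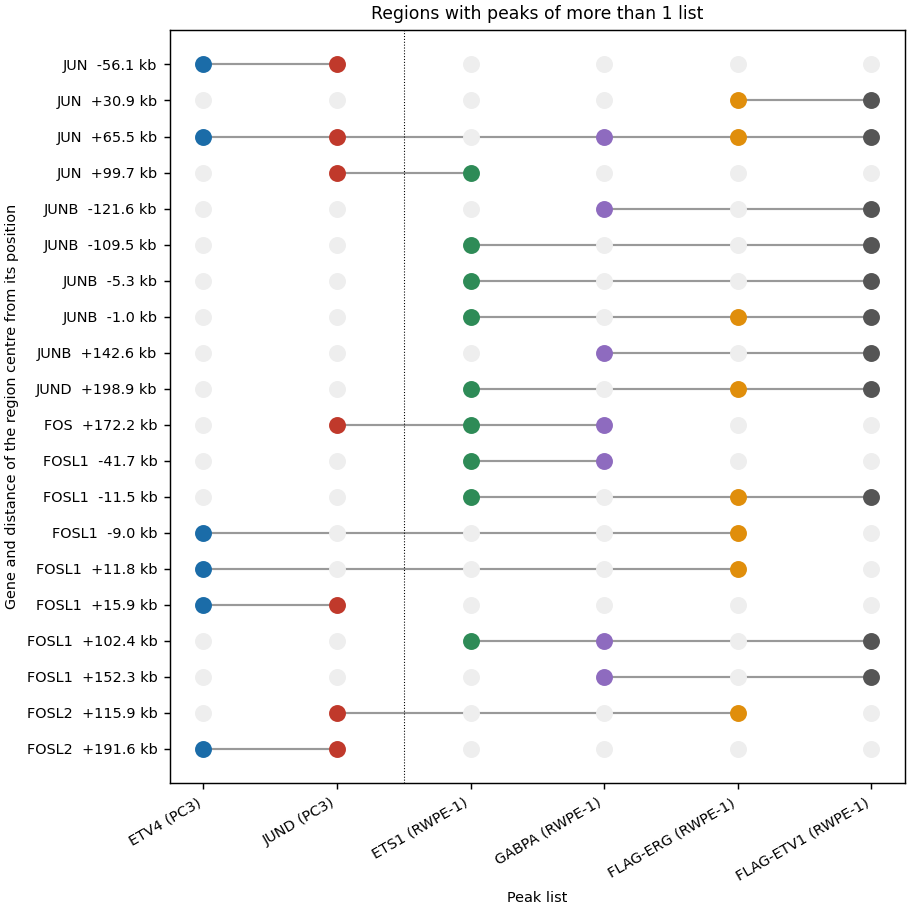
The 20 regions with peaks of more than 1 list (vertical axis, gene and distance of the region centre in kb) and the lists that make them up (horizontal axis); coloured points are lists with a peak, and the dotted line divides the PC3 from the RWPE-1 lists. The region 65.5 kb above JUN holds 5 lists, and regions at JUNB and JUND hold RWPE-1 lists only.

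In PC3, 4 regions were common to ETV4 and JUND: 2 at JUN, 1 at FOSL1 and 1 at FOSL2. They were 36.4% of the 11 ETV4 peaks (10.9 to 69.2%), against 23.0% of the whole ETV4 list. For JUND they were 33.3% of 12 (9.92 to 65.1%), against 24.3% of its list. Both intervals contain the share of the whole list.

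Among the RWPE-1 lists, ETS1 was most often shared near these genes when partners of either line were counted. Of its peaks, 9 of 11 overlapped another list, or 81.8% (48.2 to 97.7%), against 27.8% of the whole list. With RWPE-1 partners only, the ETS1 share was 7 of 11, 63.6% (30.8 to 89.1%) against 26.3%. Counted in that way, FLAG-ERG had 5 of 11, 45.5% against 39.1%, and GABPA 6 of 31, 19.4% against 8.60%. FLAG-ETV1 had 11 of 33, 33.3% against 14.5%. The shares that follow again count partners of either line. FLAG-ETV1 was the partner of ETS1 at 6 of the 11 ETS1 peaks, 54.5% (23.4 to 83.3%) against 17.0%. FLAG-ERG had 8 of 11 peaks shared, 72.7% (39.0 to 94.0%) against 45.9%. FLAG-ETV1 was its partner at 5 of the 11, 45.5% (16.7 to 76.6%) against 31.1%, and the same FLAG antibody was used for both. For GABPA 7 of 31 peaks were shared, 22.6% (9.59 to 41.1%) against 9.22%, and for FLAG-ETV1 11 of 33, 33.3% (18.0 to 51.8%) against 17.2%. In PC3 the shares were 6 of 11 ETV4 peaks, 54.5% (23.4 to 83.3%) against 30.4%, and 7 of 12 JUND peaks, 58.3% (27.7 to 84.8%) against 32.2%.

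All 6 lists thus had a higher share near the AP-1 genes than in the whole list, but the 6 shares come from the same regions and count each overlap from both sides. For FLAG-ERG, ETV4 and JUND the interval contained the share of the whole list. With any 1 window left out, the ETS1 share ranged from 75.0 to 90.0%, and its interval lay above the list's share. Peaks of a window are not independent draws, so all these intervals are too narrow and are no test of a difference. For GABPA the lower end passed below 9.22% without the window of JUN (7.71%), JUNB (9.15%), FOS (8.30%) or FOSL1 (4.95%). For FLAG-ETV1 it passed below 17.2% without JUN (15.3%), JUNB (8.97%) or FOSL1 (15.6%).

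**Figure D5:**
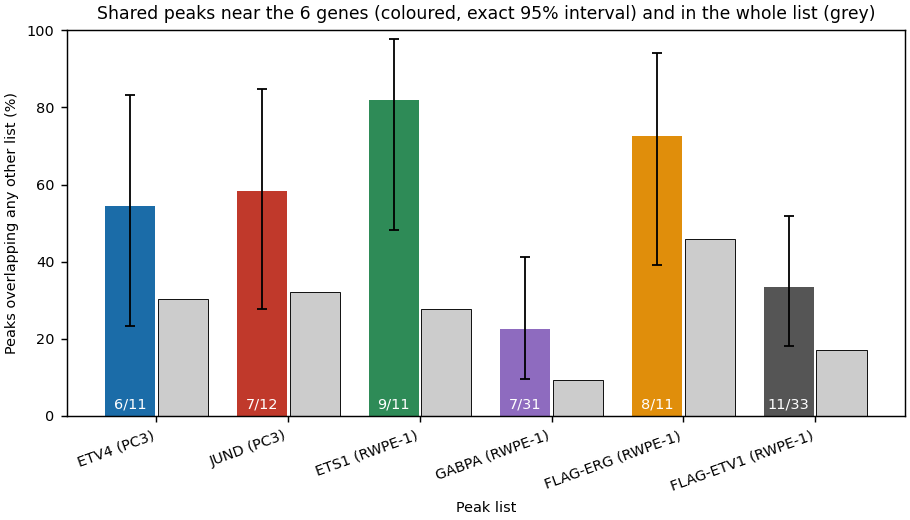
Share of the peaks of each list (horizontal axis) that overlap a peak of any other list by at least 1 bp (vertical axis, percent), for the peaks near the 6 genes (coloured, with exact 95% binomial intervals and counts) and for the whole list (grey). ETS1 has the highest share near the genes, 81.8% (9 of 11), against 27.8% of its whole list.

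At the limit of the rule, the outermost members were a JUND peak 99.8 kb from JUN, a GABPA peak 194 kb from JUNB and a FLAG-ERG peak 199 kb from JUND. They were a FLAG-ETV1 peak 194 kb from FOS, a GABPA peak 188 kb from FOSL1 and a JUND peak 192 kb from FOSL2. The first peaks outside were of FLAG-ETV1 at 207 kb from JUN, 214.5 kb from JUND and 237 kb from FOSL1. They were of GABPA at 215 kb from JUNB, of JUND at 257 kb from FOS and of ETS1 at 202 kb from FOSL2.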

How the data were processed

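The authors deposited 6 peak lists without a header, each with a chromosome, a start and an end on hg18, per the labels. Not given in the sources used here are the aligner, the peak caller, its control and its threshold, and no depth or score is held, so no stricter threshold could be tried. Samples were grouped by title. Starts were read as counted from 0 and are printed from 1. In PC3 there were 3143 peaks of ETV4 and 2973 of JUND. In RWPE-1 there were 8736 of FLAG-ETV1, 8070 of GABPA, 2314 of FLAG-ERG and 2180 of ETS1, none over 501 bp.

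Peaks that overlapped by at least 1 bp were called shared and merged into regions. All 6 genes are described, and regions were named where they held more than 1 list, lay within 10 kb, were nearest for a list, or lay at the limit of the window. Other unshared peaks named in the text were chosen after their values were seen. The members, lists and rules were chosen with earlier results of these data known. Related genes were considered from a list of 12: FOSB, ATF2, ATF3, ATF7, BATF, BATF2, BATF3, JDP2, MAFF, MAFK, NFE2L2 and CREB1. Tiles ran from the start of each chromosome to its last peak. Overlap and window code was tested on simulated data. Analyses ran in pandas 2.3.3 and scipy 1.17.1 under Python 3.11.15, with figures in matplotlib 3.10.9.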

Additional observations from a re-analysis of the deposited data

How the results depend on the processing

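Of the 8 summary counts, those that changed by over 1.5 times did so as follows. Windows of 100 kb held 65 peaks in place of 109, 49 merged regions in place of 81, 11 regions in more than 1 list in place of 20, and 15 RWPE-1 peaks shared within that line in place of 29. Windows of 500 kb held 215 peaks, 170 regions, 31 of them in more than 1 list, 44 RWPE-1 peaks shared within the line and 32 peaks shared across lines in place of 16. These changes follow from the size of the window. A limit of 20 kb from the genes took in 31 peaks in place of 19. Reciprocal overlap of at least 50% left 9 peaks shared across lines. The pairs that dropped out were ETV4 with FLAG-ERG at FOSL1 (223 and 188 bp in common), JUND with FLAG-ERG at FOSL2 (189 bp) and JUND with GABPA at FOS (35 bp). With the JUNB window left out, an alternative chosen after seeing the data, 18 RWPE-1 peaks were shared within the line and 10 peaks lay within 10 kb. Without the FOSL1 window, also chosen afterwards, there were 13 regions in more than 1 list and 19 such RWPE-1 peaks. Promoters with a motif match rose from 1 to 3 when TGACNTCA was counted too. The other 34 recomputed counts stayed within 1.5 times. A gap of up to 500 bp counted the ETV4 and JUND peaks at FOSL1 as shared, 5 regions in place of 4. No paired analysis was possible because each group is 1 library. Depth is unknown, so a peak missing from a short list says little.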
